A study of Mus musculus with 30 samples.

Results

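The TSC22 domain genes of the mouse are Tsc22d1, Tsc22d2, Tsc22d3 and Tsc22d4, and they were followed here through every array probe annotated to them. The platform annotation, updated through RefSeq, gave 7 probes for these 4 genes, and all 7 passed the filter on dim probes, which left 22568 of 46174 probes and 13228 genes. The study hybridised RNA of the nucleus accumbens, a ventral striatal region of the reward circuit, to Illumina bead arrays, and the tissue was taken 4 h after the injection. The mice were C57BL/6J. Dexamethasone, a synthetic agonist of the glucocorticoid receptor, was given at 4 mg/kg and saline served as its control. The 6 groups, each of 5 arrays, were astrocytes after dexamethasone, astrocytes after saline, neurons after dexamethasone, neurons after saline, tissue after dexamethasone and tissue after saline. Magnetic sorting gave the astrocytes and neurons, every mouse had an array of its own, and the labels name no transgene or engineered allele. The sources used here do not give the age or sex of the mice or the antigens used for sorting.

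TSC22 domain proteins are leucine zipper proteins without a classical DNA-binding region, and they form dimers with one another. Tsc22d3 encodes the glucocorticoid-induced leucine zipper, GILZ, a direct target of the glucocorticoid receptor in many cell types, whose protein binds and restrains NF-kB, AP-1 and Ras signalling. Tsc22d1 was first described as a gene induced by transforming growth factor beta. The long forms of Tsc22d1, Tsc22d2 and Tsc22d4 bind the pseudokinases Nrbp1 and Nrbp2 and take part in the WNK kinase pathway, which sets chloride transport and cell volume.

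Tsc22d3 lies on chromosome X at chrX:140539528-140600522 and Tsc22d1 on chromosome 14 at chr14:76414961-76507765 (GRCm38.p6, RefSeq). Tsc22d2 lies at chr3:58414702-58466787 and Tsc22d4 at chr5:137745969-137768453. The RefSeq promoter table matched 2 of the 4 genes, with 3 start sites for Tsc22d3 and 5 for Tsc22d1. The windows of Tsc22d3 and 1 window of Tsc22d1 are shown because these 2 genes had the called dexamethasone responses of the family, and the Tsc22d1 window is the one of its 5 with the half-site named next. Each line gives the 250 bases before a start site, 5′ to 3′ on the strand of the gene (minus for Tsc22d3, plus for Tsc22d1), and capitals mark AGAACA or its reverse complement TGTTCT, the half-site bound by the glucocorticoid receptor.
Tsc22d3, chrX:140600523-140600772: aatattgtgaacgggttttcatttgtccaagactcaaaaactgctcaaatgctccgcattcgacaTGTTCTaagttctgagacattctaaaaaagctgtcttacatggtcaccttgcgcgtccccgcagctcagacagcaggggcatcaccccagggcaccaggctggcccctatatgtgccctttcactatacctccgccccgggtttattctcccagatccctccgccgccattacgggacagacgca
Tsc22d3, chrX:140548572-140548821: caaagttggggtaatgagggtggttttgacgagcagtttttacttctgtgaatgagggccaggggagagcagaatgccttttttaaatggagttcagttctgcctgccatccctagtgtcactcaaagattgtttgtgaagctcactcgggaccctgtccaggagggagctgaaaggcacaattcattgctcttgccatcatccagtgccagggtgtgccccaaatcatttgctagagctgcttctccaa
Tsc22d3, chrX:140542669-140542918: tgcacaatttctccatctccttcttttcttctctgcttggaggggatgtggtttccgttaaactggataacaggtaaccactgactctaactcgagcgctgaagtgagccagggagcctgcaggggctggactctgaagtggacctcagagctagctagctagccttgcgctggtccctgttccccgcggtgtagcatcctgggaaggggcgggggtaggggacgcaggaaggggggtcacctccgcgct
Tsc22d1, chr14:76503976-76504225: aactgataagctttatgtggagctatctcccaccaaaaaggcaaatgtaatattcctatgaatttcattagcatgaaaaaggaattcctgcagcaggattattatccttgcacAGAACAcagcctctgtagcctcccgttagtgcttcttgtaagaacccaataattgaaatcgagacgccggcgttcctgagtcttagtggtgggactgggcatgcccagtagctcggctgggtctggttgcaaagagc

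The most upstream Tsc22d3 window held TGTTCT with its first base 185 bases before the start, and the Tsc22d1 window held AGAACA with its first base 137 bases before the start. No other of the 8 windows of these genes held the half-site, read on both strands. Across 32851 promoter windows of the same length, 16.1% held it, against 2 of these 8. The full element AGAACANNNTGTTCT, which contains the half-site on both strands, was in 0.00913% of windows and in 0 of the 8. The forkhead motif GTAAACA, or TGTTTAC on the other strand, the site of FoxO factors, was in 3.17% of windows and in 0 of the 8. These are letters in a window and say nothing about binding.

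Tsc22d3 is reported by 2 probes. The brighter, ILMN_3150811, is annotated to transcript NM_001077364.1 and the dimmer, ILMN_2701664, to NM_010286.3. Tsc22d1 has the bright probe ILMN_2723108 (NM_009366.2) and the dim probe ILMN_2677878 (NM_207652.1), and Tsc22d2 has ILMN_2426190 and ILMN_2602204, both annotated to NM_001081229.1. Tsc22d4 has the single probe ILMN_2638061 (NM_023910.5). Where each probe lies within its transcript is not given in the tables used here, so a probe is not assigned to an isoform beyond this annotation. Levels are log2 intensities after background correction and quantile normalization, and a probe counts as detected on an array where under 5% of the probes for olfactory and other sensory receptors were as bright. The 7 probes were detected on all 30 arrays, except the dim Tsc22d1 probe, which was detected on 12. Because probes differ in how they bind, the level of one is not set against that of another.

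The preparations were checked with marker lists, each summarised as the mean log2 level of its measured genes on an array. The 12 astrocyte markers, such as Aqp4 and Slc1a2, averaged 13.6 in astrocytes after either agent and 11.3 in tissue after either agent. In neurons they lay between 7.39 and 8.35 after dexamethasone and between 8.30 and 9.58 after saline. The 9 measured medium spiny neuron markers averaged 12.5 in neurons after either agent, and 8.30 in astrocytes after dexamethasone and 8.38 in astrocytes after saline. The 8 measured general neuron markers averaged 12.3 in saline neurons, 12.7 in saline tissue and 9.85 in saline astrocytes. Between saline neurons and saline tissue, 0 of these 8 were called as higher in neurons and 4 as lower (median -0.25). Of the 9 medium spiny neuron markers, 5 were called as higher and 0 as lower there, against 11.1% and 15.9% of all genes. Oligodendrocyte markers (8 of 10 measured) were high in astrocytes too, at 13.7 after dexamethasone and 13.6 after saline, and the 5 blood markers, such as Hba-a1 and Alas2, were highest in neurons, at 13.5 after either agent. The array of tissue after dexamethasone replicate 5 stood apart, with 50.2% of probes detected against 36.3% to 44.8% on the other arrays and a mean correlation of 0.909 with the arrays of its group. A lower level in one preparation than in another can come from fewer cells of a type or from less RNA per cell, and these cannot be told apart here. P-values measure the spread between the arrays of a group.

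**Figure D1:**
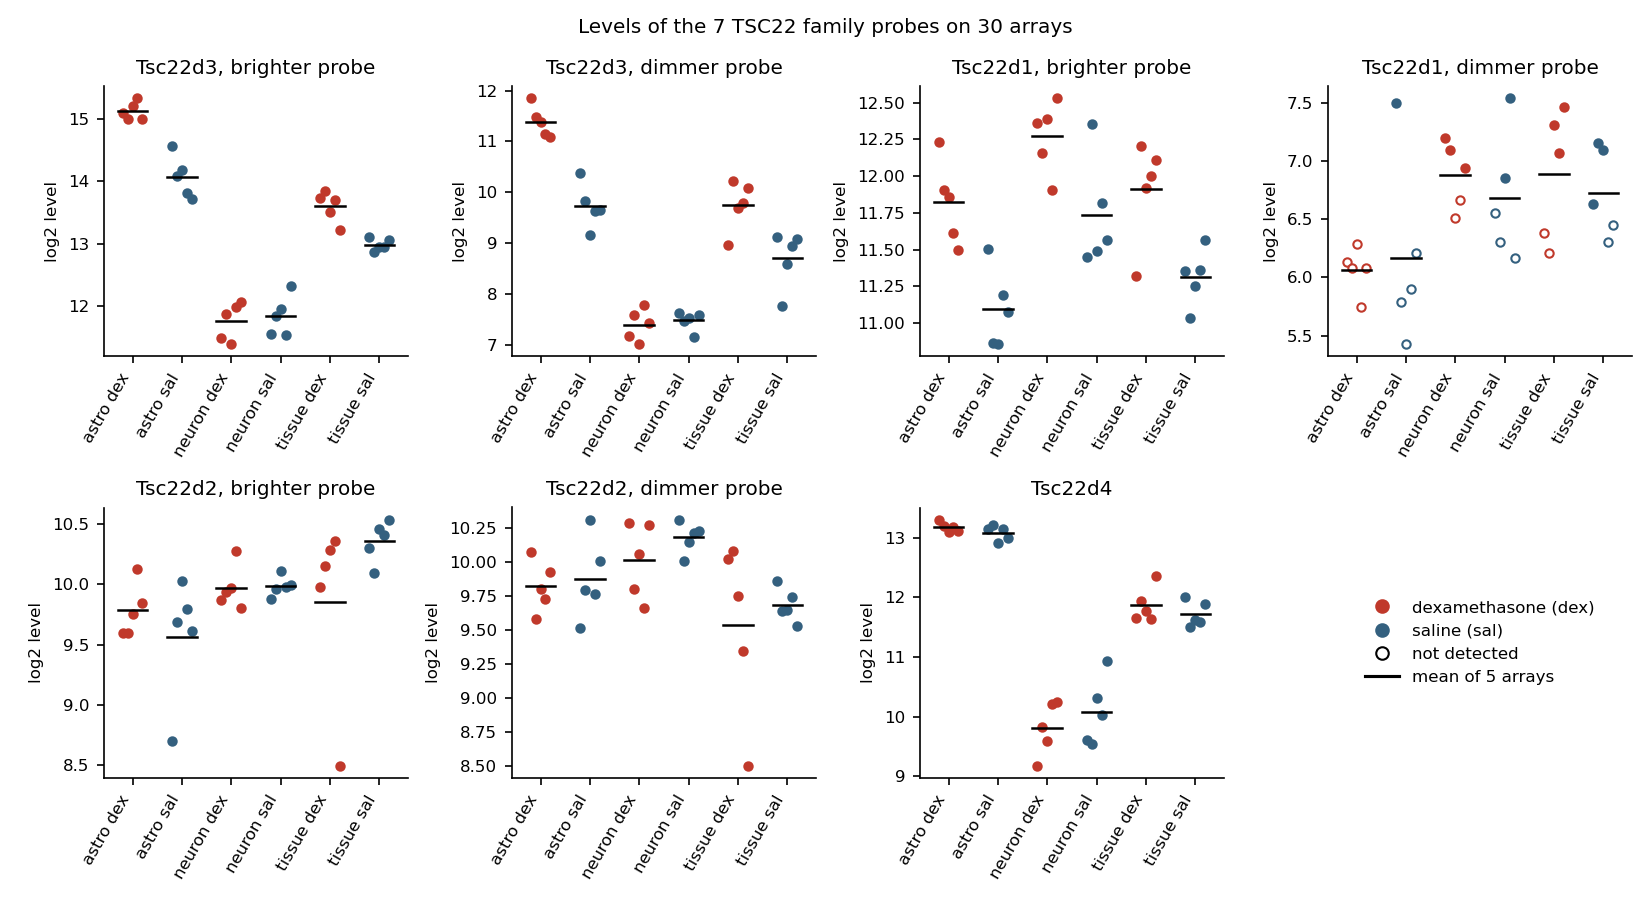
Log2 level of each TSC22 family probe on each of the 30 arrays (vertical axis, scaled per panel) by group (horizontal axis); points are arrays, open points were not detected and lines are means of 5 arrays. Both Tsc22d3 probes and Tsc22d4 are highest in astrocytes and lowest in neurons, and the 5 dexamethasone astrocyte arrays of both Tsc22d3 probes lie above the 5 saline ones.

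Under saline, Tsc22d3 and Tsc22d4 were highest in astrocytes, lower in tissue and lowest in neurons. The brighter Tsc22d3 probe averaged 14.07 ± 0.34 in saline astrocytes and 11.84 ± 0.32 in saline neurons (SD, n = 5 arrays each). The log2 difference was 2.24 ± 0.17 (SE, limma), 4.71-fold, with an adjusted p of 1.25e-08, and the groups did not overlap. Astrocytes were 1.09 ± 0.17 above saline tissue, which averaged 12.99 ± 0.10 (adjusted p = 6.3e-05), and neurons differed from tissue by -1.15 ± 0.17 (adjusted p = 0.000131), again without overlap. Markers of other cell types also differed between these preparations: 10 of 10 microglia markers (median 2.77), 6 of 8 oligodendrocyte markers (median 1.52) and 5 of 6 mural cell markers (median 2.47) were higher in astrocytes than in neurons, and astrocytes exceeded tissue in 4 of 6 mural cell and 7 of 8 endothelial markers. Astrocytes were below tissue in 6 of 10 microglia markers (median -0.64) and 4 of 8 oligodendrocyte markers (median -0.43), with 0 higher in either list. Of all genes, 27% were called as higher and 31.2% as lower in astrocytes than in neurons, and 24.2% as higher and 27.6% as lower in astrocytes than in tissue. The part of these marker lists in the Tsc22d3 and Tsc22d4 levels was not tested. The dimmer probe gave the same order, with differences of 2.25 ± 0.25, 1.03 ± 0.25 and -1.22 ± 0.25 for these 3 comparisons, all called in the fit over all detected probes.

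Tsc22d4, whose long form binds Nrbp1 and Nrbp2, had the widest gap of the family between the sorted preparations. Its probe read 13.14, 13.22, 12.91, 13.14 and 13.00 in saline astrocytes. In saline neurons it read 9.60, 9.54, 10.32, 10.02 and 10.94. No neuron array reached the lowest astrocyte array. The difference was 3.00 ± 0.22, 7.999-fold, with an adjusted p of 4.84e-09. Saline tissue lay between them at 11.72 ± 0.21, which was 1.36 ± 0.22 below astrocytes (adjusted p = 5.9e-05) and 1.64 ± 0.22 above neurons (adjusted p = 3.1e-05). These calls stand in comparisons where most or many genes differed: 58.2% of genes were called between astrocytes and neurons, 51.8% between astrocytes and tissue and 26.9% between neurons and tissue.

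Tsc22d1 ran the other way. Its bright probe averaged 11.10 ± 0.27 in saline astrocytes and 11.74 ± 0.38 in saline neurons, a difference of -0.64 ± 0.18 (adjusted p = 0.00641), although the groups overlapped: neuron replicates 1 and 3 lay below the highest astrocyte array. Saline tissue averaged 11.31 ± 0.19. Neither the step from astrocytes to tissue (-0.21 ± 0.18, adjusted p = 0.344) nor that from neurons to tissue (0.42 ± 0.18, adjusted p = 0.0995) was called, so tissue could not be ordered against its neighbours. On the 15 dexamethasone arrays the difference between astrocytes and neurons was -0.45 ± 0.19 (adjusted p = 0.0612), not called.

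For Tsc22d2, which also binds the Nrbp proteins, the 2 probes disagreed about tissue although both are annotated to one transcript. The brighter gave 9.56 ± 0.51 in saline astrocytes and 10.36 ± 0.17 in saline tissue, a called difference of -0.79 ± 0.19 (adjusted p = 0.00246) with all astrocyte arrays lower. The other probe gave 9.87 ± 0.30 in saline astrocytes and 9.68 ± 0.12 in saline tissue, a difference of 0.19 ± 0.14 (adjusted p = 0.289). Between neurons and tissue the brighter probe gave -0.37 ± 0.19 (adjusted p = 0.175) and the other 0.50 ± 0.14, called with all neuron arrays higher (adjusted p = 0.0196). In that fit over all detected probes 22.8% of probes were called. With the mean of both probes the difference between astrocytes and tissue was -0.30 (adjusted p = 0.117), and on the dexamethasone arrays the brighter probe gave -0.07 (adjusted p = 0.864). Between astrocytes and neurons the probes gave differences of the same sign, -0.42 ± 0.19 (adjusted p = 0.0736) with the brighter and -0.30 ± 0.14 (adjusted p = 0.0878) with the other, neither of them called.

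Tsc22d3 rose with dexamethasone in astrocytes. The brighter probe read 15.10, 14.99, 15.20, 15.33 and 15 in the 5 dexamethasone arrays. In the 5 saline arrays it read 14.57, 14.08, 14.18, 13.82 and 13.72. Every dexamethasone array lay above every saline array. Tsc22d3 was 1.05 ± 0.17 higher (SE; 95% interval 0.68 to 1.42), 2.07-fold, with an adjusted p of 0.00842, and ranked 95 by p among 13228 genes, of which 1.76% were called and 1.4% were called as higher. Of the 4 family members it was the single one called in astrocytes. The exact permutation test over the 10 arrays gave a two-sided p of 0.00794, the smallest that 252 splits can give and the value that any pair of groups without overlap gives. Those splits ignore the chips, and exchanges within the 5 chips could not go below 0.0625.

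The dimmer Tsc22d3 probe rose as well. It read 11.85, 11.47, 11.38, 11.15 and 11.08 in dexamethasone astrocytes and 10.39, 9.83, 9.17, 9.62 and 9.65 in saline astrocytes. These arrays did not overlap either. The difference was 1.65 ± 0.23 (95% interval 1.16 to 2.15), 3.15-fold, with an adjusted p of 0.00403 in the fit over all detected probes, where 1.29% were called. On each chip, which holds 1 array of every group, the dexamethasone array was above its saline partner by 1.42 to 2.21 with the dimmer probe and by 0.53 to 1.52 with the brighter. The intervals of the 2 probes overlap, and their difference was not tested. The deposited log2 intensity of the brighter probe was 15.07 to 15.47 in dexamethasone astrocytes, where the highest over all probes and arrays was 16.11. Whether the upper end of the scale limits its difference was not tested. The call of Tsc22d3 in astrocytes was kept under every alternative run, with adjusted p between 0.000242 and 0.0329. Choroid plexus markers (4 of 5 measured) ran from 7.36 to 8.21 in dexamethasone astrocytes and from 7.77 to 10.4 in saline astrocytes, and the median difference of the 12 astrocyte markers was -0.0083 with 0 called. The part of either list in the Tsc22d3 result was not tested.

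**Figure D2:**
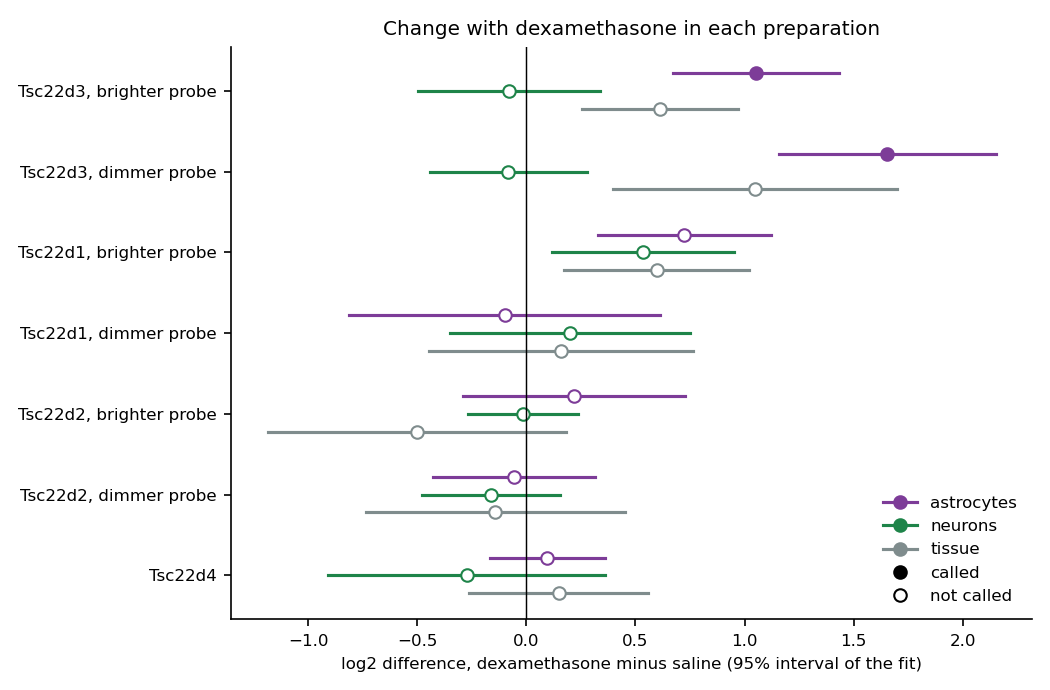
Log2 difference, dexamethasone minus saline, of each TSC22 family probe in astrocytes, neurons and tissue with its 95% interval, from the fit over all detected probes; filled points were called at an adjusted p under 0.05. Both Tsc22d3 probes are called in astrocytes, at 1.05 and 1.65, and lie near 0 in neurons, while the bright Tsc22d1 probe lies between 0.53 and 0.72 in all 3 preparations without a call.

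In neurons, Tsc22d3 did not pass the test. The brighter probe read 11.48, 11.88, 11.39, 11.99 and 12.06 after dexamethasone and 11.55, 11.85, 11.96, 11.53 and 12.32 after saline. The groups overlapped, and 2 of 5 chips had the dexamethasone array higher. The difference was -0.08 ± 0.19 with a 95% interval of -0.49 to 0.33 (adjusted p = 0.979), so a rise of the size in astrocytes lies outside the interval. The dimmer probe gave the same difference, -0.08 ± 0.16 (interval -0.44 to 0.28). In neurons limma called 0% of genes, while 932 of 13228 had an unadjusted p under 0.05. The 12 astrocyte markers averaged 7.84 ± 0.42 in neurons after dexamethasone and 8.93 ± 0.52 in neurons after saline, with a median difference of -1.15 and 0 called, and the 8 oligodendrocyte markers averaged 11.9 ± 0.39 after dexamethasone and 12.5 ± 0.48 after saline. Their part in the Tsc22d3 values of neurons was not tested.

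The response of Tsc22d3 in astrocytes exceeded that in neurons by 1.13 ± 0.24 on the log2 scale (95% interval 0.64 to 1.62, adjusted p = 0.0125). This test of the difference used all 30 arrays and called 0.832% of genes. With the dimmer probe the excess was 1.74 ± 0.35 (adjusted p = 0.00948, with 0.665% of probes called). The brighter probe's call held under every alternative run, with adjusted p between 0.00136 and 0.0336. In the same comparison the 12 astrocyte markers had a median of 1.16, and 4 of them were called as higher in astrocytes: Aldoc (1.55 ± 0.34), Gjb6 (1.85 ± 0.42), Slc1a3 (1.42 ± 0.33) and Slc7a10 (1.67 ± 0.39). Tsc22d4, the other member with a high astrocyte level, was at 0.37 ± 0.30 and was not called. The part of the astrocyte markers in the Tsc22d3 difference was not tested.

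In tissue, the brighter Tsc22d3 probe read 13.73, 13.85, 13.50, 13.70 and 13.22 after dexamethasone. It read 13.10, 12.86, 12.95, 12.95 and 13.06 after saline. The groups did not overlap, and the dexamethasone array was higher on 5 of 5 chips. The difference was 0.61 ± 0.16 (95% interval 0.27 to 0.95), 1.53-fold, and the exact permutation p over splits that ignore the chips was 0.00794, the smallest possible. Adjusted over all genes it was not called (adjusted p = 0.454), in a comparison where 0.0378% of genes, 5 of 13228, were called, every one as higher, and 2 with the chip as a block. The dimmer probe read 8.97, 10.22, 9.69, 9.78 and 10.08 after dexamethasone and 9.12, 7.76, 8.59, 8.94 and 9.08 after saline, a difference of 1.05 ± 0.30 (adjusted p = 0.634; exact permutation p = 0.0238), with replicate 1 of dexamethasone inside the saline range. With median centring in place of quantile normalization the brighter probe's difference was 0.25 while the median of all genes shifted by -0.24, against a median of -0.045 with quantile normalization. Without tissue dexamethasone replicate 5 the difference was 0.71 (adjusted p = 0.0741), and over every alternative the adjusted p ranged from 0.0741 to 0.958.

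The tissue response was not shown to differ from either sorted preparation. The astrocyte response minus the tissue response was 0.44 ± 0.24 (95% interval -0.05 to 0.93, adjusted p = 0.802), where 0.355% of genes were called. The neuron response minus the tissue response was -0.69 ± 0.24 (95% interval -1.18 to -0.20, unadjusted p = 0.00734 by limma, adjusted p = 0.776), where 0.0529% were called. With median centring these differences were 0.99 (adjusted p = 0.148) and -0.40 (adjusted p = 0.996). The order of the preparations was the same after dexamethasone. On the dexamethasone arrays Tsc22d3 was 3.37 ± 0.17 higher in astrocytes than in neurons, 1.53 ± 0.17 higher in astrocytes than in tissue, and differed by -1.84 ± 0.17 between neurons and tissue.

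**Figure D3:**
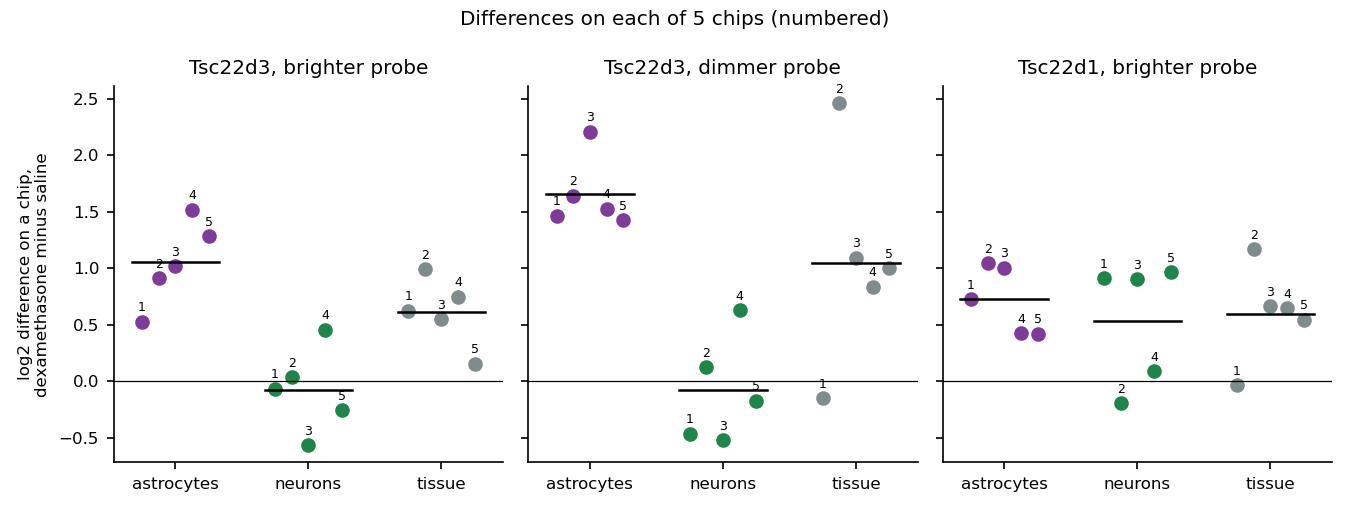
Log2 difference between the dexamethasone and the saline array of the same chip (vertical axis) for the 2 Tsc22d3 probes and the bright Tsc22d1 probe in each preparation; points are the 5 chips, numbered, and lines their means. The differences of both Tsc22d3 probes in astrocytes lie above 0 on every chip, and those in neurons on either side of 0.

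Tsc22d1 had higher means after dexamethasone in each preparation but was not called in any of them alone. In astrocytes its bright probe read 12.23, 11.91, 11.86, 11.62 and 11.50 after dexamethasone. It read 11.50, 10.87, 10.86, 11.19 and 11.08 after saline. Dexamethasone replicate 5 and saline replicate 1 met at 11.50, and 5 of 5 chips had the dexamethasone array higher. The difference was 0.72 ± 0.18 (95% interval 0.34 to 1.11, adjusted p = 0.0726). Over the alternatives the adjusted p ranged from 0.0223 to 0.831. It was under 0.05 without background correction (0.67, adjusted p = 0.0223), in a fit over all 30 arrays (adjusted p = 0.026) and without astrocyte saline replicate 1 (0.82, adjusted p = 0.0411). Tsc22d1 stayed uncalled in 9 of the 10 fits that left out 1 array and in 7 of the 9 other settings.

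In neurons the bright Tsc22d1 probe read 12.36, 12.16, 12.39, 11.91 and 12.53 after dexamethasone and 11.45, 12.36, 11.49, 11.82 and 11.56 after saline, with saline replicate 2 inside the dexamethasone range. The difference was 0.53 ± 0.19 (adjusted p = 0.583), higher on 4 of 5 chips. In tissue it read 11.32, 12.20, 11.92, 12.003 and 12.11 after dexamethasone and 11.36, 11.04, 11.25, 11.36 and 11.57 after saline, with dexamethasone replicate 1 among the saline arrays. The difference was 0.60 ± 0.19 (adjusted p = 0.663), again higher on 4 of 5 chips, and 0.30 with median centring. No difference between the responses of 2 preparations was called for Tsc22d1. The 95% interval of the astrocyte response minus the neuron response was -0.35 to 0.73.

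The mean of the 3 responses, a comparison added after the data were seen, was 0.62 ± 0.11 for Tsc22d1 (95% interval 0.40 to 0.84), 1.54-fold, with an adjusted p of 0.000981. Tsc22d1 ranked 48 among the 13228 genes by p in that comparison, where 2.15% were called. Tsc22d3 reached 0.53 ± 0.10 (adjusted p = 0.00191). For Tsc22d3 this is a mean over astrocytes and neurons, whose responses differed as tested above, and tissue, which was not shown to differ from either. Tsc22d2 (-0.10 ± 0.14) and Tsc22d4 (-0.01 ± 0.12) were not called. The dim Tsc22d1 probe, annotated to another transcript, gave a mean response of 0.09 ± 0.18 (adjusted p = 0.935) and was not detected on any of the 5 dexamethasone astrocyte arrays. Averaging both Tsc22d1 probes gave 0.35 (adjusted p = 0.121), so the call rests on the bright probe.

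Tsc22d4 and Tsc22d2 did not pass the test in any preparation. Tsc22d4 read 13.30, 13.20, 13.10, 13.18 and 13.12 in dexamethasone astrocytes, with 1 array above the range of the saline arrays. The difference was 0.10 ± 0.11 with a 95% interval of -0.15 to 0.34. In neurons it averaged 9.81 ± 0.45 after dexamethasone and 10.08 ± 0.57 after saline (interval of the difference -0.91 to 0.36), and in tissue 11.87 ± 0.30 after dexamethasone and 11.72 ± 0.21 after saline (interval -0.25 to 0.55). The brighter Tsc22d2 probe averaged 9.78 ± 0.22 in dexamethasone astrocytes and 9.56 ± 0.51 in saline astrocytes, and 9.97 ± 0.18 in dexamethasone neurons and 9.98 ± 0.08 in saline neurons. In tissue it read 9.98, 10.15, 10.28, 10.36 and 8.50 after dexamethasone and 10.30, 10.09, 10.45, 10.40 and 10.53 after saline. The low value is that of replicate 5, the array that stood apart, and without it the difference was -0.16 against -0.50 with it (adjusted p = 0.877 with it).

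Across the 30 arrays the level of Tsc22d3 ran with that of Tsc22d4 (Pearson r = 0.941), while every other pair of members correlated between -0.47 and -0.12. These correlations describe arrays that share preparations, agents and chips, so differences in level between the preparations are part of them. The 5 genes most like Tsc22d3 by Pearson r of the log2 level were Ipas (0.981), the lysolipid transporter Mfsd2a (0.974), the sulfotransferase Sult1a1 (0.969), Rin2 (0.969) and Nde1 (0.968). Sult1a1 averaged 13.1 in dexamethasone astrocytes and 11.9 in saline astrocytes, and 9.89 in dexamethasone neurons and 9.64 in saline neurons. The genes most like Tsc22d4 were Pon2 (0.986), Akr1b10, Metrn, Scrg1 and Ddah1, each between 0.985 and 0.986. Pon2 averaged 14.9 in astrocytes after either agent. For Tsc22d1 they were Insl6 (0.836), the ecto-nucleotidase Nt5e (0.759), Pkp2 (0.736), Slc24a4 (0.726) and Tpd52l1 (0.725). Insl6 averaged 8.66 in dexamethasone astrocytes and 6.27 in saline astrocytes, 9.78 in dexamethasone neurons and 7.90 in saline neurons, and 9.21 in dexamethasone tissue and 7.71 in saline tissue. For Tsc22d2 they were Thoc7 (0.902), Adnp, Uchl5 (0.882), Rnf11 (0.880) and Map7 (0.866).

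The WNK and NRBP genes around the long TSC22 forms were described by counts, with 11 of 13 listed genes measured. After dexamethasone 2 rose and 0 fell in astrocytes, with a median of 0.10 against -0.01 over all genes. In astrocytes 1.4% of all genes were called as higher. In neurons and tissue 0 of the 11 were called, where 0% and 0.0378% of all genes were. In the mean of the 3 responses 1 was called, Wnk4, at 0.51 ± 0.13 (adjusted p = 0.0385), where 2.15% of all genes were called and 1.3% as higher. Wnk4 averaged 8.75 in dexamethasone neurons and 8.48 in saline neurons, and 7.50 in dexamethasone tissue and 7.54 in saline tissue. The kinase gene Wnk4 rose by 1.30 ± 0.25 in astrocytes (adjusted p = 0.0251), lying between 7.40 and 8.04 in dexamethasone arrays and between 5.70 and 7.14 in saline arrays, where it was detected on 2 of 5. The kinase gene Wnk2 rose by 0.72 ± 0.16 (adjusted p = 0.0452), with 12.60 to 13.00 after dexamethasone and 11.73 to 12.31 after saline. Wnk4 and Wnk2 were higher after dexamethasone on 5 of 5 chips in astrocytes. Their responses were not shown to differ between astrocytes and neurons (1.03 ± 0.33 for Wnk4, adjusted p = 0.198, and 0.72 ± 0.25 for Wnk2, adjusted p = 0.284).

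Under saline, 5 of these 11 genes were higher and 2 lower in astrocytes than in neurons, where 27% of all genes were called as higher and 31.2% as lower. The pseudokinase gene Nrbp2, a partner of Tsc22d4, was 2.50 ± 0.15 higher in astrocytes, the potassium chloride cotransporter gene Slc12a4 2.36 ± 0.22 (detected on 1 of 5 neuron arrays, so the size is uncertain), Wnk2 1.38 ± 0.16 and the sodium potassium chloride cotransporter gene Slc12a2 1.09 ± 0.15. The neuronal chloride exporter gene Slc12a5 differed by -2.43 ± 0.18 and Wnk4 by -2.08 ± 0.22. Nrbp1 was not called in any dexamethasone comparison.

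Of the proteins that GILZ is known to bind or act on, 10 of 14 genes were measured and 0 were called after dexamethasone in any preparation, where 1.76% of all genes were called in astrocytes, 0% in neurons and 0.0378% in tissue. The 2 with the smallest p in astrocytes were the transcription factor genes Cebpb, at 0.78 ± 0.25 (adjusted p = 0.21), and Cebpd, at 0.34 ± 0.12 (adjusted p = 0.285). In the mean of the 3 responses 1 of the 10 was called, Cebpb, at 0.44 ± 0.11 (adjusted p = 0.0254), against 2.15% of all genes. Under saline, where 27% of all genes were called as higher and 31.2% as lower in astrocytes than in neurons, 7 of the 10 were higher, among them Cebpb (2.00 ± 0.18), Cebpd (1.09 ± 0.13), the NF-kB subunit gene Rela (1.11 ± 0.14) and the AP-1 gene Jun (1.51 ± 0.21), and 2 were lower, Hras (-1.42 ± 0.15) and Mdm2 (-0.63 ± 0.13).

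Of the transforming growth factor beta genes, the pathway after which Tsc22d1 was named, 9 of 12 were measured and 0 were called after dexamethasone in any preparation, against the same shares of all genes. The ligand gene Tgfb2 differed by -0.44 ± 0.15 in astrocytes (adjusted p = 0.263). Tgfb1 differed by -0.89 ± 0.26 (adjusted p = 0.163) and was not detected on any dexamethasone astrocyte array, at least 1.24-fold lower by the bound of the lowest detected level. In the mean of the 3 responses Tgfb2 fell by 0.36 ± 0.10 (adjusted p = 0.0397), the single one of the 9 called there. Of all genes, 2.15% were called in that comparison and 0.854% were called as lower. Under saline 4 of the 9 were higher in astrocytes than in neurons (27% of all genes), Tgfb2 (2.11 ± 0.15), the receptor genes Tgfbr1 (1.17 ± 0.12) and Tgfbr2 (1.04 ± 0.26), and Tgfb1 (at least 1.28-fold, not detected in neurons), and 3 were lower (31.2% of all genes), Skil (-1.81 ± 0.23), Ski (-0.72 ± 0.15) and Smad3 (-0.47 ± 0.15).

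**Figure D4:**
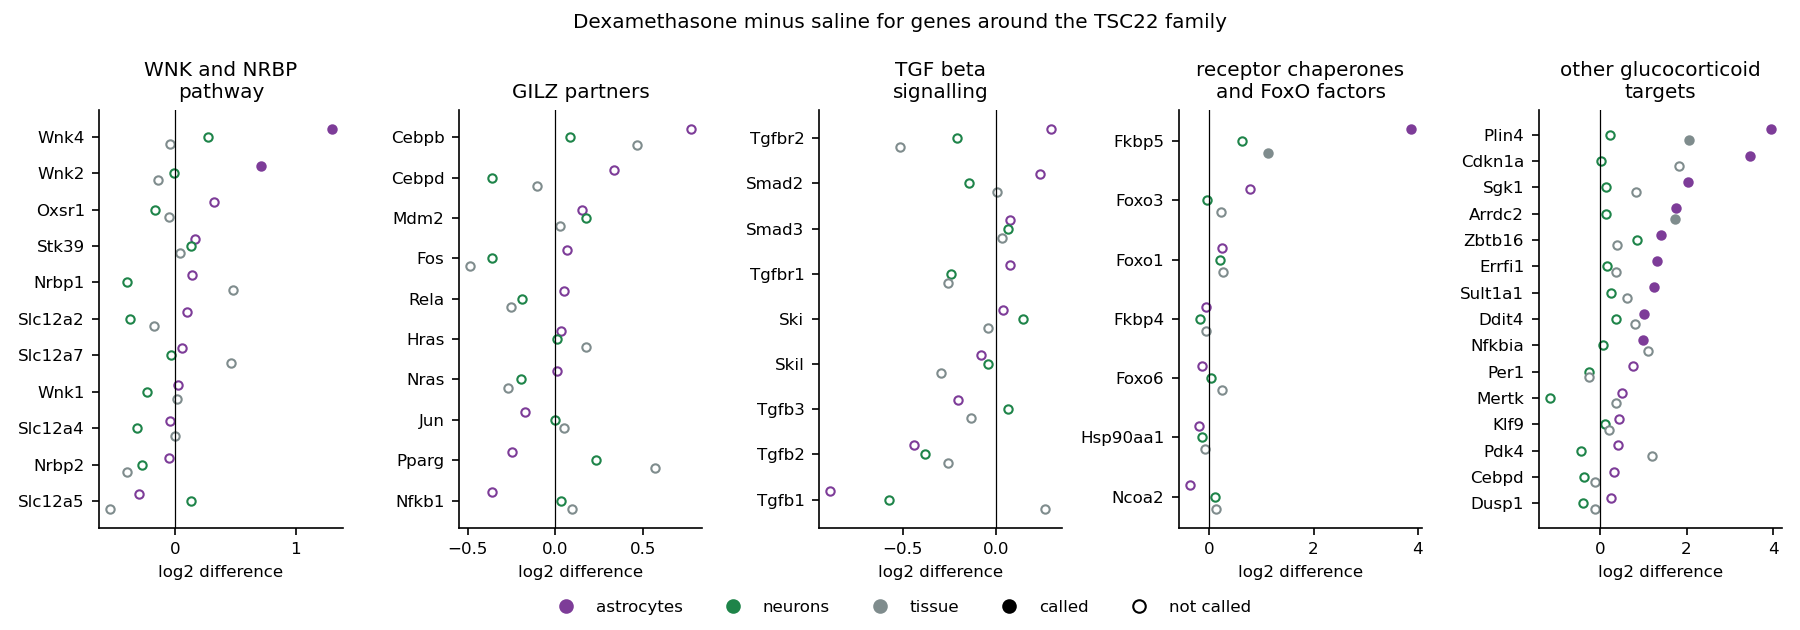
Log2 difference, dexamethasone minus saline (horizontal axes, scaled per panel), for the measured genes of 5 lists around the TSC22 family in astrocytes, neurons and tissue; filled points were called at an adjusted p under 0.05. In astrocytes Wnk4 and Wnk2 of the WNK panel, Fkbp5 of the chaperone panel and 9 of the 15 other glucocorticoid targets are called, and no point is called in neurons.

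Genes of the receptors, genes acting on them and FoxO factors acting on Tsc22d3 transcription were measured for 7 of 12 listed. The glucocorticoid receptor gene Nr3c1 and the mineralocorticoid receptor gene Nr3c2 were not among the 7. Fkbp5, an immunophilin that restrains the glucocorticoid receptor and is itself induced by it, rose in astrocytes by 3.87 ± 0.24 and in tissue by 1.12 ± 0.14 (adjusted p = 0.0203), and was at 0.63 ± 0.19 in neurons (adjusted p = 0.485). Foxo3 was at 0.79 ± 0.26 in astrocytes (adjusted p = 0.238). The 15 other glucocorticoid targets set the response of Tsc22d3 beside those of known target genes. This list was chosen with earlier results of these data known, so its counts and medians are a description and not an independent benchmark. In astrocytes 9 rose and 0 fell, with a median of 1.03 against -0.01 over all genes, of which 1.4% were called as higher. The Tsc22d3 difference was 1.05 with the brighter probe and 1.65 with the dimmer. Those with the smallest p were the cell cycle inhibitor gene Cdkn1a (3.46 ± 0.23), the kinase gene Sgk1 (2.03 ± 0.17), Arrdc2 (1.75 ± 0.15) and Sult1a1 (1.25 ± 0.15). Cebpd stands in this list as well as among the GILZ partners. In neurons 0 of the 15 were called. In tissue 2 rose, the lipid droplet gene Plin4 (2.05 ± 0.20) and Arrdc2 (1.74 ± 0.25), where 0.0378% of all genes were called, and the median was 0.62. The Tsc22d3 difference in tissue was 0.61 with the brighter probe, 0.25 with that probe under median centring, and 1.05 with the dimmer probe.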

How the data were processed

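Illumina bead arrays of 30 RNA samples were used, in 6 groups of 5. The authors deposited log2 intensities of 46174 probes that, from their values, were not normalized between arrays, and a second value table that matched a further log2 taken of those values after quantile normalization (largest difference 5e-10), which served as an alternative. The sources used here do not name the scanner software or any background step, and the number of arrays limits the precision. Detection p was not in the tables used, so 1588 probes of sensory receptor genes (olfactory, vomeronasal, taste and trace amine) took the role of negative controls: limma's normexp model (offset 16), quantile normalization over the 30 arrays, log2, and detection where under 5% of receptor probes were as bright (detection p under 0.05). Receptor probes were then removed, and 22568 of 44586 probes detected on at least 5 arrays were kept. Probe symbols came from the platform annotation updated through RefSeq GRCm38.p6 (35725 probes with 1 symbol, 10449 with none, 0 with several; 28566 updated by Entrez ID, 2632 by accession, 4527 kept). The brightest probe stood for a gene (13228 genes).

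Two-sided limma tests (version 3.58.1, R 4.3.3; lmFit, then eBayes) were adjusted by Benjamini-Hochberg over all genes, or over all 22568 probes for single probes, and an adjusted p under 0.05 was called. Each dexamethasone comparison used the 10 arrays of its preparation, responses were compared as interactions on 30 arrays, and preparations on the 15 saline arrays. Differences are log2 values with the SE of the fit, and levels are means with SD. The code was tested on simulated data with known changes. The members, gene lists and tests were chosen with earlier results of these data known. Named genes were the members with all probes, up to 4 called genes per list and direction by smallest p (up to 2 by p where fewer than 2 were called), and the 5 genes best correlated with each member. The alternatives are given in the closing section.

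The label descriptions put arrays of one replicate number on one chip, which pairs them. Each group held a fixed chip position, so position and group cannot be told apart. After subtraction of group means, the 2 arrays of a preparation on one chip had a mean correlation of 0.19 (lowest -0.045) for astrocytes, 0.18 (0.072) for neurons and 0.047 (-0.13) for tissue.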

Additional observations from a re-analysis of the deposited data

Results flagged for a closer look

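The brighter Tsc22d2 probe (ILMN_2426190) was at 8.50 on tissue after dexamethasone replicate 5, while the other 4 arrays of the group lay between 9.98 and 10.36. Its gap to the nearest array was 0.795 of the whole range of the group. It was the single case among 42 groups tested for one far array. Chance gives about 1 such case in every 20 groups, so a single case is not more than chance would give. The other Tsc22d2 probe was at 8.50 on that array too, the lowest of its group.

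The dexamethasone response of Tsc22d3 differed between astrocytes and neurons, by 1.13 ± 0.24 on the log2 scale in the test of the difference itself (adjusted p = 0.0125), and every one of the 5 chips had Tsc22d3 higher after dexamethasone in astrocytes against 2 of 5 in neurons. In the same comparison the 12 astrocyte markers had a median of 1.16, with 4 called as higher in astrocytes. Their part in the Tsc22d3 difference was not tested.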

How the results depend on the processing

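Over 40 results of the members, 944 values under alternatives were computed: 906 kept direction and call, 4 lost a call, 4 gained one and 30 changed sign. The calls of Tsc22d3 in astrocytes, in astrocytes against neurons, in its mean response and in the 3 saline comparisons were kept under every alternative run. The replicate block, which pairs arrays by chip, left the Tsc22d3 difference in astrocytes at 1.05 (adjusted p = 0.0307) and in tissue at 0.61 (adjusted p = 0.756), and changed no call of a member; it moved the count of genes called in tissue to 2, against 5 without it. Median centring moved counts of genes called to 153 in astrocytes (233 with quantile normalization), 9 in neurons (0), 0 in tissue, 0 for the neuron minus tissue response (7) and 169 for the mean response (285). It gave Tsc22d4 -0.16 in tissue and 0.35 for its astrocyte minus tissue response, and Tsc22d1 0.19 for its neuron minus tissue response. Centring put the median of all genes at -0.239 for dexamethasone in tissue (-0.045 with quantile normalization), 0.14 for the astrocyte minus neuron response (0.00399), 0.295 for astrocyte minus tissue (0.0396), 0.15 for neuron minus tissue (0.0314), and under saline -0.178 for astrocytes minus tissue (-0.0359) and -0.122 for neurons minus tissue (0.00415). A fit over all 30 arrays called 369, 52 and 13 genes in astrocytes, neurons and tissue. In tissue the count was 8 without background correction, 9 with an offset of 50, 9 with detection on at least 15 arrays and 8 with the value table. Without background correction 75 genes were called for the astrocyte minus tissue response (47 with it), and Tsc22d4 had a mean response of 0.0013. With no filter 1 gene was called for the neuron minus tissue response. With the mean of probes Tsc22d1 gave -0.056 for the astrocyte minus neuron response and -0.066 for the astrocyte minus tissue response, and Tsc22d2 0.063 between neurons and tissue under saline, which was 0.115 on the dexamethasone arrays. Except where the construction shows it, as with fewer genes or arrays, the cause was not tested.

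Leaving out 1 array at a time, counts of genes called ranged from 133 (without astrocyte dexamethasone replicate 3) to 227 in astrocytes, 0 to 32 (without neuron saline replicate 2) in neurons, 1 to 14 (without tissue dexamethasone replicate 5) in tissue, where omitting any array but saline replicate 5 moved the count by over 1.5 times, 20 (without astrocyte dexamethasone replicate 2) to 58 for the astrocyte minus tissue response and 1 to 27 (without neuron saline replicate 2) for the neuron minus tissue response. Tsc22d3 in neurons ranged from -0.16 to 0.039 and was above 0 without neuron dexamethasone replicate 3 or saline replicate 5. Members whose sign changed in this way were Tsc22d2 in neurons (range -0.091 to 0.025) and in its mean response (-0.17 to 0.013), Tsc22d1 in its astrocyte minus tissue (-0.022 to 0.23) and neuron minus tissue responses (-0.21 to 0.093), and Tsc22d4 in its astrocyte minus tissue response (-0.12 to 0.071) and mean response (-0.055 to 0.061), and none was called. Signal limits the dim Tsc22d1 probe, detected on 12 of 30 arrays.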
